A study of Mus musculus with 9 samples.

Results

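App and its homologues Aplp1 and Aplp2 are 3 of the 33274 gene symbols listed in at least 1 of the 9 count files. The members were taken by symbol, and all 3 are listed in each of the 9 files. They were chosen by measured values of App in these data, namely its higher level in endothelial cells than elsewhere and its difference around temozolomide (TMZ), so these patterns of App are given as a description without a test.

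Mouse-derived cells of nude mouse brains were profiled by Drop-seq, in which a droplet pairs a cell with a bead of barcoded primers and a unique molecular identifier (UMI) lets each captured transcript be counted once. Every animal in the comparison was a nude mouse, a strain without a functional thymus, and the methods name females. Nu-NB was 1 normal brain without tumor. The PDOX group held 7 untreated glioblastoma (GBM) models, named P3, P8, P13, T16, T101, T192 and T233, in which patient-derived organoids had been implanted into the brain, so that the tumor was human and the tumor microenvironment (TME) was of the mouse. P3TMZ was 1 model treated with TMZ, an alkylating drug given against GBM, beside the untreated P3. Animal ages are not given in the sources used here. Each model was 1 sample, T192 and T233 came from tumors of the same patient, and the untreated animals of the drug experiment received vehicle according to the methods although the label reads untreated. FACS was used to sort P8 and Nu-NB, while magnetic beads were used for the rest, and the same 2 samples carry older gene symbols, so that sort and symbol release cannot be told apart.

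App encodes the amyloid precursor protein, a membrane protein with a large outer part and a short cytoplasmic tail. Alpha-secretases such as Adam10 or the beta-secretase Bace1 first cut off the outer part, and the gamma-secretase complex then cuts the rest within the membrane. Amyloid-beta arises from App by the beta and gamma cuts, whereas Aplp1 and Aplp2 are cut by related enzymes and lack the amyloid-beta sequence. Aplp1 is known as the neural member of the family, and App and Aplp2 are expressed in most tissues.

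After filtering, 14622 cells remained, from 722 to 2770 per sample, and the median depth of a cell ran from 513.5 to 1272.5 UMIs. Cells were clustered without the 3 members and without the genes of their pathway, and clusters were named from marker genes, with the ending "-like" because the names rest on these markers alone. In endothelial-like cells of PDOXs, all 8 endothelial markers were detected in each model and summed to 10146 to 17580 CPM (UMIs of the gene per 1e+06 UMIs), against 181 to 523 CPM in myeloid-like cells. Mural-like cells, the pericytes and smooth muscle cells around vessels, held 15383 to 28415 CPM of mural markers and 684 to 1437 CPM of myeloid markers in P8 and T101, and in T16 and P13 both lists stood between 8839 and 12255 CPM. In T192, T233, P3 and P3TMZ the myeloid markers (22810 to 30644 CPM) exceeded the mural ones (1541 to 8296 CPM), which goes against the name, so results on mural-like cells are given with and without T192, T233 and P3. In OPC-like cells, where OPC stands for oligodendrocyte progenitor cell, OPC markers summed to 2504 to 5511 CPM over 6 PDOXs and myeloid markers to 433 to 9872 CPM. The myeloid list exceeded the OPC list in T192, T16 and P13 and not in P8, T101 and T233. In ciliated ependymal-like cells myeloid markers (15940 to 18516 CPM) exceeded ciliated ones (2946 to 3230 CPM) in T16 and P13, and in T101 the lists stood at 7934 and 8065 CPM. Fibroblast-like cells of T16 likewise held 9533 CPM of myeloid beside 9375 CPM of fibroblast markers. The cycling-like class, named from cell cycle genes, held 10862 to 23393 CPM of myeloid markers in PDOXs. In Nu-NB this class held 26247.5 CPM of erythrocyte and 5389 CPM of neutrophil markers, against 0 to 15975 and 0 to 127 CPM in PDOXs. Neuronal-like cells held 2189 CPM of neuronal markers and 7929 CPM of cycling markers in Nu-NB, against 19397 and 2500.0 CPM in T16 and 12034 and 2809 CPM in P13. Unnamed cells made up 53.9% of T101, 24.1% of P3, 25.1% of P3TMZ and 4.04% to 12.1% of the other samples. Among the kept cells, 9 barcodes occurred in more than 1 sample. Levels are given in CPM over the 12580 genes listed in every file, after the UMIs of all cells of a class were summed within a sample with at least 10 such cells. Intervals are exact Poisson intervals of 95% and cover counting error only.

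In the annotation of the mouse genome build GRCm38 all 3 genes lie on the minus strand, App on chromosome 16 from 84949685 to 85173766, Aplp1 on chromosome 7 from 30434982 to 30445535 and Aplp2 on chromosome 9 from 31149557 to 31211815. Their promoters are shown because App and Aplp2 shared their highest cell class in most samples and Aplp1 did not. Each is 300 bases of RefSeq sequence (GRCm38.p6, minus strand, 5′ to 3′), 250 before and 50 after the annotated start, and capitals mark the GC box GGGCGG.
App, chr16:85173658-85173957: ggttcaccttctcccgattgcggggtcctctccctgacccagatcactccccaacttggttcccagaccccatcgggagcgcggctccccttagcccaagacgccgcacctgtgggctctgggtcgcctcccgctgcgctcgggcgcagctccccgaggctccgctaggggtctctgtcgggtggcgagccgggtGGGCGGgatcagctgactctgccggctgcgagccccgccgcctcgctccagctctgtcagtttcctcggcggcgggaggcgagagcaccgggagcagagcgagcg
Aplp2, chr9:31211799-31212098: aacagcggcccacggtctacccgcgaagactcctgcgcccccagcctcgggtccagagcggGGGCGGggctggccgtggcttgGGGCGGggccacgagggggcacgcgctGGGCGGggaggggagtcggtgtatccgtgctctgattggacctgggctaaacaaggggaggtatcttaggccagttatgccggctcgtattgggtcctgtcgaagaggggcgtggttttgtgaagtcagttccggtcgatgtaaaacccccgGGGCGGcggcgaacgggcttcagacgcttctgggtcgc
Aplp1, chr7:30445533-30445832: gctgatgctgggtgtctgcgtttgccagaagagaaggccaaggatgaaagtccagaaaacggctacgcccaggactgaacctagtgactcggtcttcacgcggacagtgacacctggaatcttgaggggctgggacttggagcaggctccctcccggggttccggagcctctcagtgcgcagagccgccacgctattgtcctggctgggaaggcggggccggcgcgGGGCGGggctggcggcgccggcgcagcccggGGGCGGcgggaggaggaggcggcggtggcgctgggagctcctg
All 3 promoters were rich in G and C, with 71.0% in App, 67.0% in Aplp2 and 68.7% in Aplp1. The letters GGGCGG, searched on both strands, occurred 1 time in App, 4 times in Aplp2 and 2 times in Aplp1, and 35.7% of the 32851 promoters of the same length hold them. Aplp2 alone held CCAAT, 2 times over both strands, a motif found in 37.4% of promoters. None of the 3 windows held TATAAA (13.6% of promoters), CACGTG (7.15%) or TGACTCA (5.20%) on either strand. These matches describe the letters of the windows.

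App was highest in endothelial-like cells in 8 of the 9 samples. The levels were 2023 CPM in Nu-NB (interval 1401 to 2828, 34 UMIs), 2871 in P8, 3736 in T101, 3418 in T192, 2701 in T233, 2206 in P3, 1868 in T16, 1781 in P13 and 3139 in P3TMZ. T101 and T192 were the highest PDOXs and T16 and P13 the lowest, and Nu-NB lay inside their range. All 35 endothelial-like cells of Nu-NB, however, belonged to a cluster led by Cxcl12, and within that cluster every PDOX (2354 to 3998 CPM) lay above Nu-NB. The exception was T16, where App reached 3276 CPM (2702 to 3935) in 38 neuronal-like cells, above its endothelial-like cells. Neuronal-like cells otherwise held 831 CPM in P13 and 178 in Nu-NB (65.1 to 386, 6 UMIs), where cycling markers exceeded neuronal ones, and the part of this in the level was not tested.

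**Figure D1:**
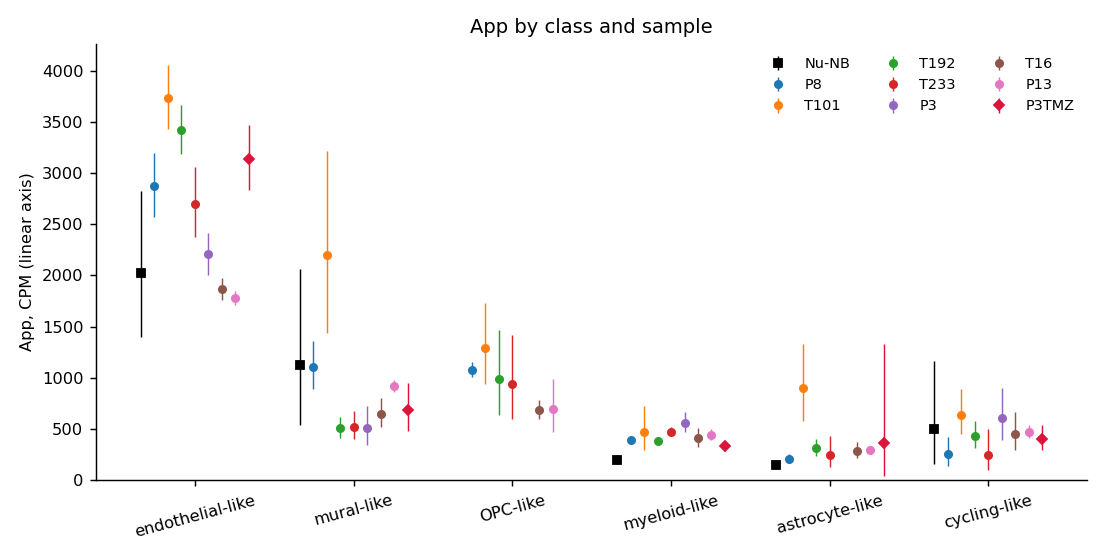
App in CPM (linear vertical axis) for each sample in 6 cell classes (horizontal axis), with exact Poisson intervals as bars; black squares are Nu-NB, circles the 7 PDOXs and red diamonds P3TMZ. Endothelial-like cells of PDOXs lie between 1781 and 3736 CPM, and T101 stands above the other PDOXs in mural-like and astrocyte-like cells.

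Over PDOXs, the mean App level was 2654 CPM ± 751 (SD, n = 7) in endothelial-like cells. Among the other classes with at least 6 PDOXs it was 947 ± 234 (n = 6) in OPC-like cells, or 1106 ± 177 (n = 3) without T192, T16 and P13, and 917 ± 611 (n = 7) in mural-like cells, or 1219 ± 679 (n = 4) without T192, T233 and P3. Myeloid-like cells held 447 ± 63.3 (n = 7), cells of the cycling-like class 443 ± 154 (n = 7) and astrocyte-like cells 376 ± 260 (n = 6). The OPC-like and mural-like levels differed by less than their spread, as did those of myeloid-like, cycling-like and astrocyte-like cells. Classes found in fewer PDOXs included neuronal-like cells with 2054 (n = 2), choroid plexus-like cells with 1249 in a single PDOX and fibroblast-like cells with 979 ± 269 (n = 3). Ciliated ependymal-like cells held 476 ± 44.3 (n = 3), or 520 CPM on 4 UMIs in T101 alone, since myeloid markers exceeded ciliated ones in the other 2. When each cell was thinned to 500 UMIs, leaving out shallower cells, between 60.3% and 82.0% of endothelial-like cells of a PDOX held an App UMI, against 14.7% to 26% of myeloid-like and 6.45% to 45.5% of astrocyte-like cells. Without thinning the shares were 59.5% to 87.4% in endothelial-like, 21.8% to 40.8% in myeloid-like and 12.5% to 37.8% in astrocyte-like cells.

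T101 was the highest PDOX for App in 5 of 6 classes. In mural-like cells App was 1111 CPM in P8, 2198 in T101, 512 in T192, 522 in T233, 508 in P3, 648 in T16 and 921 in P13. In astrocyte-like cells it was 212 CPM in P8, 901 in T101 (583 to 1330, 25 UMIs), 315 in T192, 248 in T233, 289 in T16 and 295 in P13, and P3 had too few such cells. T101 thus lay above all other PDOXs in both classes, and without it the PDOX means were 704 ± 254 (SD, n = 6) in mural-like and 272 ± 41.5 (n = 5) in astrocyte-like cells. The leading genes of the unnamed cluster that held most unnamed cells of T101 (Cnot2, Rab3ip, Frs2 and others) summed to 1045 CPM in the astrocyte-like cells of T101 and to 327 to 525 in those of the other PDOXs. In T101 they summed to 14192 CPM in cycling-like, 1323 in OPC-like, 1014 in mural-like and 604 in endothelial-like cells, each the highest of the PDOXs. In myeloid-like cells they summed to 768 CPM in T101 and 1014 in P8. The part of these cells in the App level was not tested.

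Aplp1 was highest in astrocyte-like or neuronal-like cells in 8 of the 9 samples, and in P3 neither class reached 10 cells. In astrocyte-like cells its levels were 201 CPM in Nu-NB, 317 in P8, 288 in T101, 278 in T192, 289 in T233, 185 in T16 and 218 in P13, a mean over PDOXs of 263 ± 50.1 (SD, n = 6). Nu-NB lay inside the PDOX range. OPC-like cells followed with 137 CPM in P8, 115 in T101, 82.3 in T192, 123 in T233, 71.0 in T16 and 112 in P13, and myeloid markers exceeded OPC markers in T192, T16 and P13. Every PDOX was lower in OPC-like than in astrocyte-like cells, and the 2 ranges did not overlap. Neuronal-like cells held 431 CPM in T16 and 219 in P13, against 29.6 in Nu-NB, whose cells of this name held more cycling than neuronal markers. The PDOX means in endothelial-like (12.5 ± 11.1, n = 7), mural-like (12.9 ± 11.7) and myeloid-like cells (15.7 ± 9.67) differed by less than their spread. No Aplp1 UMI was found among the 147230 UMIs of endothelial-like cells of T101, which allows up to 20.4 CPM (3 UMIs).

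Aplp2 was highest in endothelial-like cells in 6 of the 7 PDOXs, whereas in Nu-NB its highest class was mural-like cells (1799 CPM, 16 UMIs). Endothelial-like levels were 1547 CPM in Nu-NB (1011 to 2267), 1758 in P8, 985 in T101, 974 in T192, 1242 in T233, 937 in P3, 1076 in T16, 988 in P13 and 694 in P3TMZ. P8 and Nu-NB, the FACS-sorted samples, were the highest. In P3 the cycling-like class was higher, at 1114 CPM. PDOX means were 1137 ± 292 (SD, n = 7) in endothelial-like, 630 ± 117 (n = 6) in astrocyte-like, 589 ± 189 (n = 6; 653 ± 271 for n = 3 without T192, T16 and P13) in OPC-like, 523 ± 275 (n = 7; 612 ± 334 for n = 4 without T192, T233 and P3) in mural-like and 318 ± 160 (n = 7) in myeloid-like cells. P8 was the highest PDOX in these 5 classes, with 1758, 852, 960 (P8 OPC-like cells), 1111 and 541 CPM in the same order. The cycling-like class had the second highest mean of the classes with at least 6 PDOXs, 686 ± 322 (n = 7), and there P8 was the lowest PDOX (273 CPM) and Nu-NB lower still (199.6 CPM on 2 UMIs). The part of the cell sort in the Aplp2 level was not tested.

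**Figure D2:**
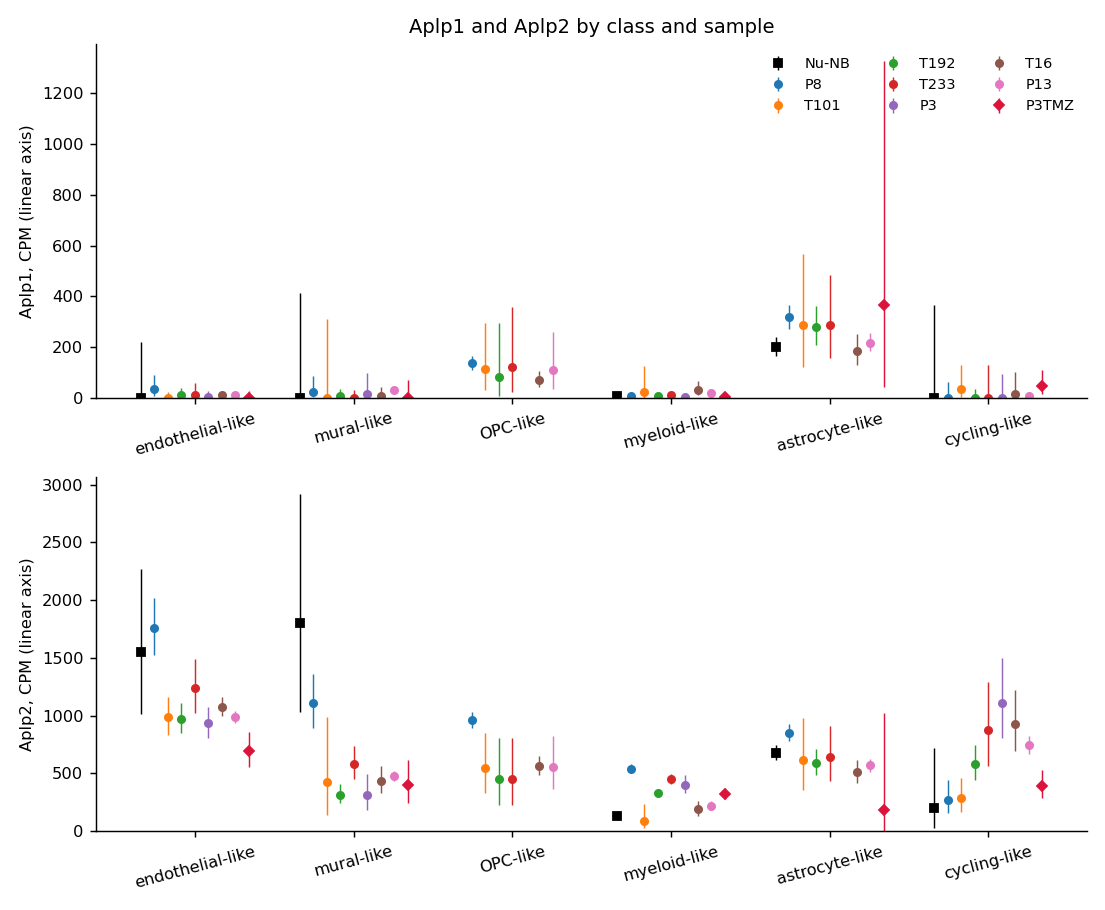
Aplp1 (top) and Aplp2 (bottom) in CPM (linear vertical axes) for each sample in 6 cell classes, with exact Poisson intervals as bars and the same symbols as in the plot of App. Aplp1 stands out in astrocyte-like and OPC-like cells, and Aplp2 is above 900 CPM in the endothelial-like cells of every PDOX.

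The order of Aplp1 and Aplp2 between classes was tested within PDOXs over 20 pairs of classes by a two-sided exact permutation test that flips the sign of the difference of log2(CPM + 10) in each PDOX, with Benjamini-Hochberg adjustment over all 20 pairs. In all, 13 pairs passed at an adjusted p of 0.05, each at the smallest p its number of PDOXs allows. Over the 8733 to 9475 genes with a mean of at least 10 CPM in a pair, 5.55% to 23.9% had every PDOX on the same side as the member called. Aplp1 was higher in astrocyte-like than in OPC-like cells in 6 of 6 PDOXs, as were 5.55% of genes, by 1.23 ± 0.24 (SD) on this scale (exact permutation p = 0.0312, adjusted p = 0.0481), and by 1.19 ± 0.055 in the 3 PDOXs left without T192, T16 and P13, too few for the test. It was also higher in astrocyte-like than in endothelial-like cells in 6 of 6 PDOXs, as were 10.9% of genes, by 3.64 on this scale (mean of endothelial-like minus astrocyte-like -3.64 ± 0.71, adjusted p = 0.0481 in the exact test). Astrocyte-like and OPC-like cells exceeded mural-like and myeloid-like cells in 6 of 6 PDOXs with the same adjusted p, beside 8.56% and 13.8% of genes for astrocyte-like and 8.54% and 13.7% for OPC-like cells, and OPC-like exceeded endothelial-like cells likewise, beside 9.41% of genes. In the 3 PDOXs whose OPC-like cells held more OPC than myeloid markers, the excess of OPC-like over myeloid-like cells was 2.48 ± 0.54. Both classes exceeded mural-like cells in all 4 PDOXs left without T192, T233 and P3. Aplp2 was higher in endothelial-like than in mural-like cells in 7 of 7 PDOXs, as were 11.1% of genes (difference 1.20 ± 0.32, exact permutation p = 0.0156, adjusted p = 0.0481). Without T192, T233 and P3, whose mural-like cells held more myeloid than mural markers, the difference was 1.04 ± 0.28 in 4 of 4 PDOXs, where the exact test cannot go below a p of 0.125. Against myeloid-like cells the difference was 1.96 ± 0.73 in 7 of 7 PDOXs, as for 22.2% of genes, and against astrocyte-like and OPC-like cells it was 0.87 ± 0.17 and 0.99 ± 0.24 in 6 of 6 PDOXs each, beside 23.9% and 12% of genes, all with an adjusted p of 0.0481 in the exact test. Astrocyte-like and OPC-like cells also exceeded myeloid-like cells in Aplp2 in 6 of 6 PDOXs at this adjusted p, beside the 13.8% and 13.7% of genes above. Aplp2 in mural-like cells did not differ beyond the spread from astrocyte-like (adjusted p = 0.292, exact test), OPC-like (adjusted p = 0.368) or myeloid-like cells (difference 0.76 ± 0.84, higher in 5 of 7 PDOXs, adjusted p = 0.112). Without T192, T233 and P3 the difference from myeloid-like cells was 1.35 ± 0.51, higher in 4 of 4 PDOXs. The calls lay at the edge of what the design allows: 0 pairs passed when T192 and T233, which share a patient, were averaged to 1 sample, when T192, T233 and P3 were left out of mural-like cells, when T192, T16 and P13 were left out of OPC-like cells (12 pairs could then be tested), when any PDOX other than P3 was left out, or under most other settings of the cell filter, clustering and depth. Each of the 13 differences kept its sign in all of its 17 to 19 alternatives.

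The makeup of the family also changed with the class. App made up a median of 68.3% of the UMIs of the 3 genes in endothelial-like cells of PDOXs (range 61.6% to 79.1%, n = 7), 58.0% in myeloid-like and 26.9% in astrocyte-like cells (15.3% to 50%, n = 6). Aplp2 made up 52.3% in astrocyte-like against 31.4% in endothelial-like cells, and Aplp1 21.6% against 0.296%. The endothelial-like and astrocyte-like ranges of the App share did not overlap, which is a description because App was chosen for its level by class. For 23.9% of 9043 genes every PDOX was higher in endothelial-like than in astrocyte-like cells. Shares of the family are compared only between classes, because UMI counts of different genes also depend on how well each transcript is captured.

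Within classes, App and Aplp2 varied between clusters. Endothelial-like cells formed a cluster led by Cxcl12, Gkn3, Ly6c1 and Abcb1a and a cluster led by Scgb3a1, Ctla2a, Cd93 and Gimap4. App was higher in the former in 6 of 6 PDOXs with at least 10 cells of both, at 3237 CPM ± 641 (SD) against 2039 ± 536, and so was Aplp2, at 1318 ± 279 against 1002 ± 350. Myeloid-like cells formed a cluster led by the microglial genes P2ry12, Il7r, Tmem119 and Gpr34, a cluster led by Lpl, Itgax, Ccl6 and Spp1, and a cluster led by Mmp12, Spp1, Ch25h and Ccl6. App was higher in the Lpl-led than in the P2ry12-led cluster in 7 of 7 PDOXs (489 ± 68.8 against 362 ± 75.8), and Aplp2 was too (330 ± 176 against 151 ± 88.7). The Mmp12-led cluster was above the P2ry12-led one in 6 of 6 PDOXs for App (465.6 ± 79.8 against 342 ± 59.96) and for Aplp2 (389 ± 112 against 176 ± 64.3). Between the Lpl-led and Mmp12-led clusters App differed by less than its spread. These are descriptions, since the clusters were drawn from the same cells. The share of all genes with the same order was not counted. Relative to the sample median, the median cell held 0.785 (Cxcl12-led), 1.53 (Scgb3a1-led), 0.657 (Lpl-led), 0.85 (P2ry12-led) and 3.19 times the UMIs (Mmp12-led). The part of this depth in the levels was not tested.

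**Figure D3:**
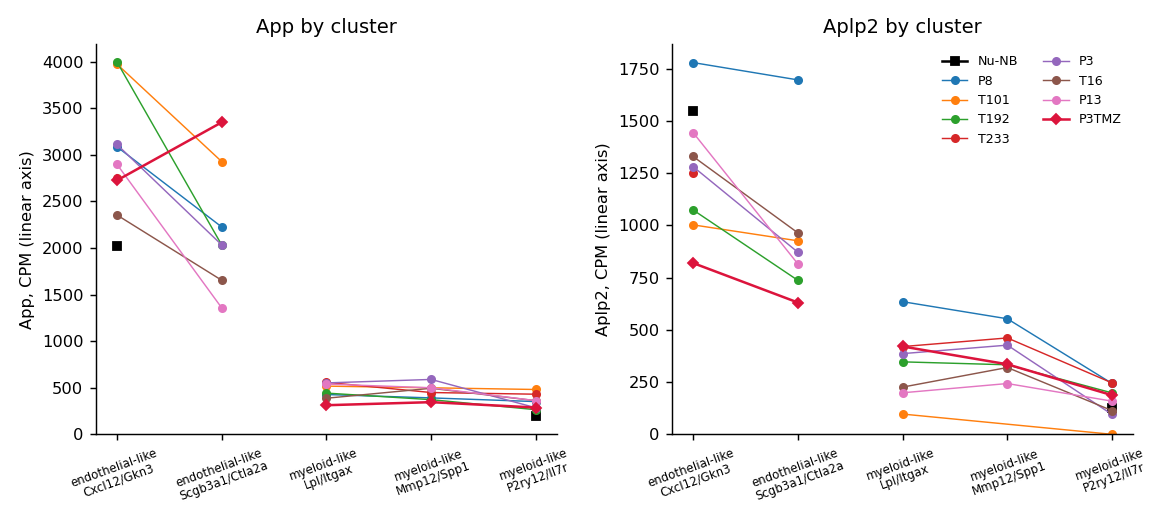
App (left) and Aplp2 (right) in CPM (linear vertical axes) in 2 endothelial-like and 3 myeloid-like clusters, named by their leading genes on the horizontal axis; each line joins the clusters of 1 sample with at least 10 cells. PDOX lines fall from the Cxcl12-led to the Scgb3a1-led endothelial-like cluster for App, whereas the P3TMZ line rises from 2724 to 3347 CPM.

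The genes whose levels were most like those of App over 49 sums of a class in a PDOX were Ppfibp1 (Spearman's rho 0.78), Gng11 (0.74), Wbp5 (0.73), 4921524J17Rik (0.73) and Itm2a (0.72), of 3881 genes with a mean of at least 50 CPM. Itm2a is a small membrane protein gene of the BRICHOS family and was led by endothelial-like cells, with 2787 CPM ± 733 (SD, n = 7) in PDOXs against 23.0 ± 14.5 in myeloid-like cells. Most like Aplp1 were Dlgap1 (0.84), Dclk1 (0.82), Gm3764 (0.81), Cntn1 (0.81) and Pcsk1n (0.78). Most like Aplp2 were Id1 (0.65), Col4a3bp (0.64), Emc4 (0.63), Zhx1 (0.63) and Ptpn12 (0.62), a weaker likeness than for the other members. The sums share libraries, so these values carry no p.

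PDOXs were compared with Nu-NB per class to ask which genes differ between tumor and normal brain. App in myeloid-like cells was 199 CPM in Nu-NB (72 UMIs), 391 in P8, 474 in T101, 379.9 in T192, 471 in T233, 563 in P3, 408 in T16 and 443 in P13. All 7 PDOXs lay above Nu-NB, as they did for 13.9% of the 9054 genes tested in this class. The fitted log2 fold change (log2FC) of PDOX over Nu-NB was 1.36 (SE 0.46, adjusted p = 0.119, edgeR's quasi-likelihood test), which did not pass the threshold of an adjusted p of at most 0.01 and a |log2FC| of at least 1. In P8, sorted the same way as Nu-NB, App was 1.96 times the Nu-NB level (conditional exact interval of the ratio 1.53 to 2.55, counting error only). In the P2ry12-led cluster alone, to which nearly all myeloid-like cells of Nu-NB belonged, App was 195 CPM in Nu-NB and 264 to 481 CPM in PDOXs, again with 7 of 7 above. The values of T101 (481 CPM), T192 (264), T233 (430) and P3 (285) rest on 3 to 8 UMIs, and their intervals include the level of Nu-NB. Endothelial markers summed to 0.213% of their endothelial-like level in myeloid-like cells of Nu-NB and to 1.24% to 4.39% in those of PDOXs. At that ratio endothelial RNA would bring 4.31 CPM of App in Nu-NB and 41.1 to 96.9 CPM in PDOXs, leaving 195 CPM in Nu-NB and 303 to 466.4 CPM in PDOXs. Whether App follows that ratio, and the part of endothelial RNA in the difference, was not tested.

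In astrocyte-like cells App was 146 CPM in Nu-NB (interval 117 to 180), below the 212 to 901 CPM of the 6 PDOXs. All 6 PDOXs lay above Nu-NB, as for 14.6% of 5603 genes, with a log2FC of 1.18 (SE 0.59, adjusted p = 0.456, edgeR). The ratio of P8 to Nu-NB was 1.45 (1.09 to 1.94). Myeloid markers in astrocyte-like cells summed to 559 CPM in Nu-NB and 626 to 4843 in PDOXs. Endothelial markers summed to 44.6 CPM in Nu-NB and 55.5 to 264 in PDOXs, and the part of both in the App level was not tested. By cluster, 564 of the 857 astrocyte-like cells of Nu-NB lay in the one led by Clmn, St6galnac5, Gnao1 and Vegfa, where App was 151 CPM in Nu-NB, 144 in P8, 161 in T192 (1 UMI), 416 in T16 (6 UMIs) and 235 in P13. P8 thus did not exceed Nu-NB in this cluster and 3 of 4 PDOXs did. In the Aldoc-led cluster App was 201 CPM in Nu-NB (8 UMIs) and 288 in P8, with 6 of 6 PDOXs above, and in the Agt-led cluster 106 (12 UMIs) and 242, with 5 of 5 above. In endothelial-like cells 5 of 7 PDOXs were above Nu-NB, with a log2FC of 1.23 (SE 0.59, adjusted p = 0.380, edgeR) that fell to 0.46 with library totals in place of TMM scaling. Within the Cxcl12-led cluster, which held all endothelial-like cells of Nu-NB and 23.6% to 95.8% of those of PDOXs in both clusters, App was 2023 CPM in Nu-NB and 2354 to 3998 CPM in PDOXs, 7 of 7 above, beside 31% of all genes over the class as a whole. The median log2FC of all 6265 genes tested in that class was 0.67 under TMM, and 35 cells of Nu-NB stood behind the comparison. In the mural-like cluster led by Vtn, Kcnj8, Rgs5 and Higd1b App was 970 CPM in Nu-NB and 800 to 2188 CPM in PDOXs, 3 of 6 above. Over all mural-like cells App was 1124 CPM in Nu-NB (10 UMIs), and 1 of 7 PDOXs was above it where 19.5% of genes had all 7 above. The log2FC was 0.79 with TMM scaling, beside a median of all genes of 0.98, but -0.21 with library totals. The direction thus rests on the scaling. Without T192, T233 and P3, 1 of 4 PDOXs was above and the log2FC was 0.76 (adjusted p = 0.652, edgeR). The cycling-like class likewise turned from 0.51 to -0.07, and fibroblast-like cells had 0.48 (SE 0.67, adjusted p = 0.861, edgeR), with 1 of 3 PDOXs above Nu-NB where 28.2% of genes had all 3 above.

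Aplp2 in myeloid-like cells was 133 CPM in Nu-NB, 541 in P8, 90.3 in T101 (4 UMIs), 333 in T192, 449 in T233, 403 in P3, 188 in T16 and 219.9 in P13. T101 fell below Nu-NB and the other 6 PDOXs lay above it, with a log2FC of 1.53 (SE 0.74, adjusted p = 0.252, edgeR). P8 held 4.07 times the Nu-NB level (3.04 to 5.58), but the P2ry12-led cluster held 17.4% of these cells of P8 against 99.2% of those of Nu-NB. Within that cluster Aplp2 was 125 CPM in Nu-NB, 243 in P8 (18 UMIs) and 0 to 246 over PDOXs, a mean of 151 ± 88.7 (SD, n = 7) with 4 of 7 above Nu-NB. In mural-like cells all 7 PDOXs, at 315 to 1111 CPM, lay below the 1799 CPM of Nu-NB (16 UMIs), as did 37.6% of 4957 genes, and the log2FC was -0.54 (SE 0.76, adjusted p = 0.769, edgeR). Without T192, T233 and P3 all 4 PDOXs lay below and the log2FC was -0.74 (adjusted p = 0.652, edgeR). In cycling-like cells all 7 PDOXs lay above Nu-NB, which had 2 UMIs, as did 22.8% of 2785 genes. The log2FC was 2.44 (SE 1.12) and did not pass the edgeR threshold. Cells of this class held 26247.5 CPM of erythrocyte markers in Nu-NB and 0 to 15975 CPM in PDOXs, and the part of this was not tested. In astrocyte-like cells the log2FC was -0.13 (SE 0.43, adjusted p = 0.941, edgeR), with 5 of 6 PDOXs below Nu-NB where 19.8% of genes had all 6 below. The direction turned with the cluster: 6 of 6 PDOXs lay above Nu-NB in the Aldoc-led cluster (527 CPM against 585 to 978), 0 of 5 in the Agt-led (734 against 323 to 679) and 1 of 4 in the Clmn-led cluster (679 against 208 to 872). In fibroblast-like cells all 3 PDOXs were below Nu-NB, as for 39.6% of genes (log2FC -0.34, SE 0.75, adjusted p = 0.890, edgeR). Aplp2 in endothelial-like cells changed from 0.38 (SE 0.48, adjusted p = 0.731, edgeR) to -0.37 with library totals, and in the Cxcl12-led cluster 1 of 7 PDOXs lay above Nu-NB.

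Aplp1 could be tested in 2 classes. In astrocyte-like cells 5 of 6 PDOXs were above Nu-NB, with a log2FC of 0.34 (SE 0.44, adjusted p = 0.787, edgeR). In the Aldoc-led cluster 0 of 6 PDOXs were above (326 CPM in Nu-NB on 13 UMIs against 215 to 312), in the Agt-led 5 of 5 (124 CPM on 14 UMIs against 126 to 388) and in the Clmn-led cluster 2 of 4. In myeloid-like cells 5 of 7 were above, on 3 UMIs in Nu-NB (log2FC 0.88, SE 1.03, adjusted p = 0.660). No member passed in any class. edgeR called 1 of 9054 genes in myeloid-like cells, which was lower in PDOXs (0.011% lower and 0% higher), 1 of 2785 in cycling-like cells, also lower (0.0359%), and 0 genes in the other classes. In myeloid-like cells 1850 genes had an unadjusted p under 0.05, DESeq2 called 224, and edgeR called 130 of 7400 without P8. Among 6265 genes of endothelial-like cells 854 had an unadjusted p under 0.05 and DESeq2 called 2, and among 5603 of astrocyte-like cells 625 did and DESeq2 called 1. The count at an unadjusted p under 0.05 was 523 of 4957 in mural-like and 75 of 1041 in fibroblast-like cells. With simulated 8-fold changes the same fit recovered 26.5% of genes in myeloid-like, 58.5% in astrocyte-like and 0% in endothelial-like cells, so differences of this size could pass unseen with 1 normal brain.

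**Figure D4:**
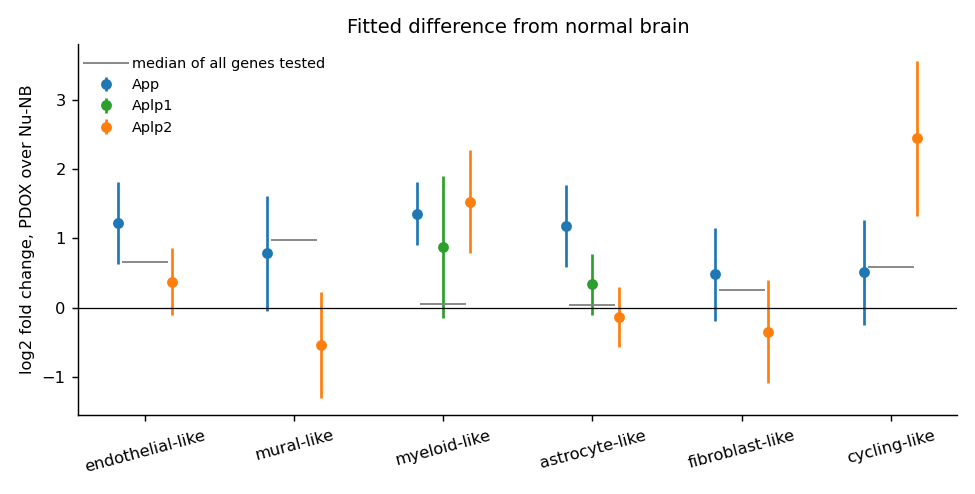
Fitted log2 fold change of PDOX over Nu-NB (vertical axis) for the members in each class tested (horizontal axis), with the standard error as bars; short grey lines give the median of all genes tested in the class. App lies above the grey line in myeloid-like, astrocyte-like, endothelial-like and fibroblast-like cells and below it in mural-like and cycling-like cells. The lines of endothelial-like (0.67) and mural-like cells (0.98) lie well above 0.

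Of the pathway, 4 lists were followed, and none of their tested genes passed the edgeR threshold in any class. Among secretase genes, 9 of 12 were tested in myeloid-like cells, with a median log2FC of 0.51 beside 0.06 over all genes, and 3 had every PDOX above Nu-NB and 2 every PDOX below, beside 13.9% and 28.8% of all genes. Adam10, the main alpha-secretase, was 313 CPM in Nu-NB and 202 ± 56.1 (SD, n = 7) in PDOXs, all 7 below (log2FC -0.39, SE 0.43, adjusted p = 0.635, edgeR), and Adam17, also an alpha-secretase, was 180 CPM and 111 ± 36.6, all 7 below. Adam9, a related protease, was 13.8 CPM in Nu-NB and 43.7 ± 12.6 in PDOXs, all 7 above (log2FC 1.98, SE 0.60, adjusted p = 0.0946, edgeR), and the lowest adjusted p among the secretase genes was 0.0889 by edgeR. Aph1c, a subunit of gamma-secretase, was at 0 UMIs in Nu-NB, where 3 UMIs are worth 8.30 CPM, and at 5.23 to 22.6 CPM in PDOXs, so that its place above Nu-NB rests on the count of 0. Bace1, the beta-secretase, stood at 33.2 CPM in Nu-NB and 14.1 ± 14.9 in PDOXs, and Bace2 was near 0 in myeloid-like cells (0.116 ± 0.307). Psenen, a subunit of gamma-secretase, was 69.2 CPM in Nu-NB and 72.0 ± 31.8 in PDOXs. In endothelial-like cells Adam10 was 476 CPM in Nu-NB and 303 ± 78.6 in PDOXs, again with 7 of 7 below as for 37.3% of all genes, although the fitted log2FC was 0.19 (SE 0.54, adjusted p = 0.899, edgeR), beside a median of all genes of 0.67. Bace1 was 25.1 ± 15.9 CPM in endothelial-like cells of PDOXs and at 0 UMIs in Nu-NB, where 3 UMIs are worth 179 CPM.

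Among partners and sorting receptors, 12 of 13 genes were tested in myeloid-like cells, with a median log2FC of 0.80 beside 0.06 over all genes, and 3 had every PDOX above Nu-NB and 3 every PDOX below, beside 13.9% and 28.8% of all genes. Cd74, the invariant chain of MHC class II, which also binds App, was 138 CPM in Nu-NB and 272 to 8461 CPM in PDOXs (log2FC 4.64, SE 1.86, adjusted p = 0.178, edgeR). Sorl1, a sorting receptor of App, was 8.30 CPM in Nu-NB and 31.3 ± 11.1 in PDOXs, and Itm2b, an inhibitor of App processing, 2259 and 3106 ± 404, with 7 of 7 PDOXs above for all 3 genes. The 3 with 7 of 7 below were the sorting receptor Sort1 (130 CPM and 62.2 ± 16.3), the death receptor Tnfrsf21 (111 and 71.1 ± 31.8) and the GABA-B receptor subunit Gabbr1 (63.7 and 22.8 ± 17.9). Lrp1, an endocytic receptor that binds App, was 385 CPM in Nu-NB and 321 ± 69.2 in PDOXs. Of the adaptors that bind the cytoplasmic tail, Apbb2 was 36.0 CPM in Nu-NB and 96.8 ± 41.0 in PDOXs with 7 of 7 above (log2FC 1.69, SE 0.66, adjusted p = 0.168, edgeR), and Apbb1 was 2.77 and 3.32 ± 5.55. Numb, an endocytic adaptor, was 404 CPM in Nu-NB and 94.5 ± 32.9 in PDOXs with 7 of 7 below (log2FC -1.95, SE 0.42, adjusted p = 0.0457, edgeR), which did not reach 0.01. Among 9 of 12 clearance genes tested there, with a median log2FC of 1.20, 4 had every PDOX above Nu-NB, 1 of them on 0 UMIs in Nu-NB, and 1 had every PDOX below. The gene below was the cholesterol transporter Abca1, at 260 CPM in Nu-NB and 179 ± 48.0 in PDOXs (log2FC -0.36, SE 0.43, adjusted p = 0.669, edgeR), and the protease inhibitor Cst3, at 50067 and 37507 ± 15735, had 6 of 7 below. Apoe was 4171 CPM in Nu-NB and 10249 to 45421 CPM in PDOXs (log2FC 3.02, SE 0.93, adjusted p = 0.0973, edgeR). Clu was 96.9 CPM and 191.8 ± 100.3 (SD, n = 7) in myeloid-like cells, and in astrocyte-like cells 4556 and 6182 ± 1390 (n = 6).

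Treatment with TMZ was followed by comparing P3TMZ with P3, with 1 sample on either side and no p-value. App in endothelial-like cells was 2206 CPM in P3 (interval 2007 to 2419) and 3139 in P3TMZ (2834 to 3467), a ratio of 1.42 (conditional exact interval 1.24 to 1.63). P3TMZ lay inside the 1781 to 3736 CPM of the 7 untreated PDOXs. The 8 endothelial markers, all detected in both, summed to 11917 CPM in these cells of P3 and 18606 in P3TMZ, above the untreated PDOXs. Cycling markers stood at 346 and 24.2 CPM, choroid plexus markers at 2006 and 347, myeloid markers at 1293 and 452 and erythrocyte markers at 4.88 and 589. The part of these markers in the App ratio was not tested. In myeloid-like cells App went the other way, from 563 CPM in P3 (474 to 664) to 332 in P3TMZ (286 to 383), a ratio of 0.589 (0.470 to 0.738). P3 was the highest and P3TMZ lay below all 7 untreated PDOXs, as 9.37% of 2445 genes with at least 50 UMIs in P3 and P3TMZ together did, and 11.9% of them were at least 1.5-fold lower in P3TMZ. The endothelial-like ratio did not reach 1.5-fold, which 10.6% of 1246 genes reached upwards and 19.2% downwards, against 10.4% upwards in myeloid-like cells. The median log2 ratio of all these genes was -0.10 in endothelial-like and -0.02 in myeloid-like cells.

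The endothelial-like ratio differed between clusters. In the Cxcl12-led endothelial-like cluster App was 3111 CPM in P3 and 2724 in P3TMZ, a ratio of 0.876 (0.664 to 1.16). In the Scgb3a1-led cluster it was 2033 and 3347 CPM, a ratio of 1.65 (1.401 to 1.93), and P3TMZ lay above the 1358 to 2927 CPM of 6 untreated PDOXs. Of 943 genes in that cluster 10.9% were at least 1.5-fold higher in P3TMZ and 17.4% lay above all untreated PDOXs. The Scgb3a1-led cluster held 76.4% of these endothelial-like cells in P3 and 43.8% in P3TMZ. Among myeloid-like cells the ratio was 0.566 (0.332 to 0.951) in the Lpl-led and 0.586 (0.449 to 0.768) in the Mmp12-led cluster, and 1.01 (0.305 to 5.25) in the P2ry12-led cluster, where P3 had 3 UMIs and the interval holds the other 2 ratios. The P2ry12-led cluster held 8.33% of these myeloid-like cells in P3 and 35.8% in P3TMZ. Choroid plexus markers in myeloid-like cells summed to 12779 CPM in P3, the highest of the PDOXs, and 2597 in P3TMZ, and mural markers to 439 and 44.6 CPM, and their part in the App ratio was not tested. Endothelial markers in myeloid-like cells stood at 4.39% of their endothelial-like level in P3 and 0.853% in P3TMZ. With App at that ratio taken off, 466.4 CPM were left in P3 and 305 in P3TMZ, which then lay inside the 303 to 466.4 CPM of the 7 untreated PDOXs. The part of endothelial RNA in the App ratio was not tested.

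Aplp2 in endothelial-like cells was 937 CPM in P3 (809 to 1079) and 694 in P3TMZ (555 to 857), a ratio of 0.741 (0.567 to 0.960). P3 was the lowest of the 7 untreated PDOXs and P3TMZ lay below it, as 7.3% of genes did. The ratio was 0.640 (0.395 to 1.03) in the Cxcl12-led and 0.724 (0.517 to 0.998) in the Scgb3a1-led cluster. In myeloid-like cells the ratio was 0.804 (0.627 to 1.04), with P3TMZ inside the PDOX range, and it turned to a log2 ratio of 0.45 when cells were thinned to 500 UMIs. In the cycling-like class Aplp2 was 1114 CPM in P3 and 394 in P3TMZ, a ratio of 0.354 (0.226 to 0.553) with P3TMZ inside the PDOX range, in a class where 36.1% of 416 genes were at least 1.5-fold lower, 29.8% at least 1.5-fold higher and 8.89% below all untreated PDOXs. On the log2 scale this ratio was -1.50, and it was -0.078 with at least 500 detected genes per cell, -0.30 with at most 10% mitochondrial UMIs and -0.69 at a Leiden resolution of 2. App there was 607 CPM in P3 and 404 in P3TMZ, a ratio of 0.664 (0.394 to 1.14), also inside the PDOX range. There the leading genes of an unnamed cluster (Hist1h4c, Gm17511, Gm16490 and others) summed to 13491 CPM in P3 and 1971 in P3TMZ, and myeloid markers to 12630 and 27441 CPM, and the part of these cells was not tested. In mural-like cells, which held more myeloid than mural markers in both P3 and P3TMZ, both App (1.35, 0.806 to 2.28) and Aplp2 (1.27, 0.644 to 2.53) had ratios whose intervals included 1, and P3TMZ lay inside the PDOX range for both, where 8.99% of 267 genes lay above it and 1.12% below. Aplp1 had at most 5 UMIs in P3 or P3TMZ in each of the 4 classes.

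**Figure D5:**
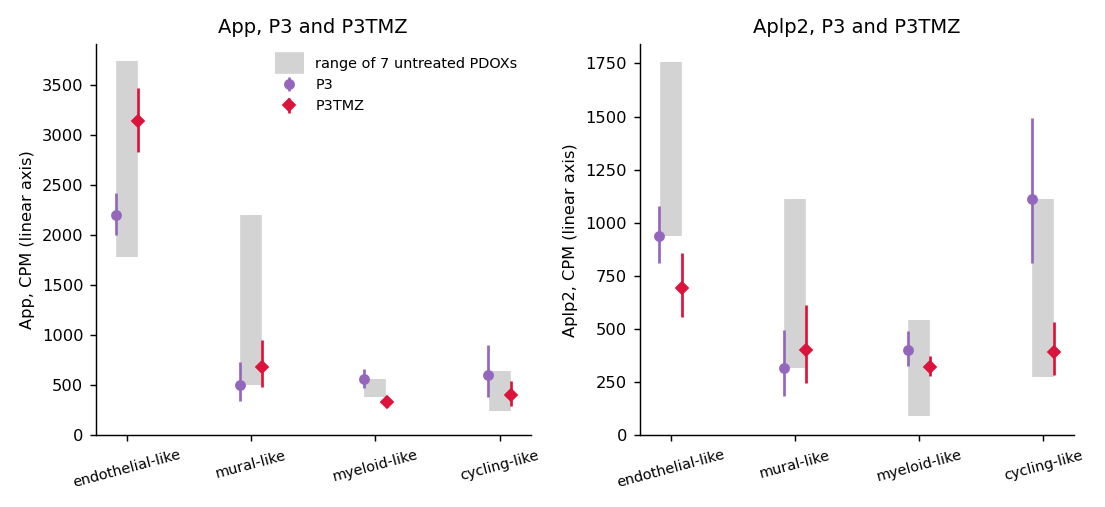
App (left) and Aplp2 (right) in CPM (linear vertical axes) in P3 (circles) and P3TMZ (diamonds) for 4 classes, with exact Poisson intervals as bars; grey bars span the 7 untreated PDOXs. App of P3TMZ is above P3 in endothelial-like cells and below the grey bar in myeloid-like cells.

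Few pathway genes had 50 UMIs in P3 and P3TMZ together. In endothelial-like cells Adam10 was 366 CPM in P3 and 161 in P3TMZ, the 1 secretase gene measured, and Itm2a was 3118 and 4559 CPM. Of 5 partners measured there 0 were at least 1.5-fold higher and 1 was lower, beside 10.6% and 19.2% of 1246 genes. In myeloid-like cells Cd74 was 599 CPM in P3 and 606 in P3TMZ, a ratio of 1.01 (0.832 to 1.23), Lrp1 was 219.7 and 364 CPM and Apoe 29661 and 48999.5 CPM. Of the 5 clearance genes measured in myeloid-like cells 2 were at least 1.5-fold higher, Apoe and Abca1, and 0 were lower, beside 10.4% and 11.9% of 2445 genes.

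Unnamed cells held the members as well. The cluster led by Hist1h4c, Gm17511, Gm16490 and Gm11983 had 388 to 1058 CPM of App and 496 to 1776 CPM of Aplp2 over 6 PDOXs, and Nu-NB and P8 each had fewer than 10 of its cells. In this cluster Aplp2 was 1192 CPM in P3 and 1631 in P3TMZ, a ratio of 1.37 (1.09 to 1.73), and Aplp1 was 45.4 and 201 CPM, a ratio of 4.42 (1.56 to 17.2) on 4 and 31 UMIs. The cluster led by Cnot2, Rab3ip, Frs2 and Cand1 held 650 cells of T101, with 1303 CPM of App and 701 CPM of Aplp2. Its leading genes also included Postn, Yeats4, Cryab, Mdm2, Mybpc1 and Egfr, and the origin of its cells was not tested.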

How the data were processed

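The data are UMI counts of mouse-derived cells from 9 Drop-seq samples (7 untreated PDOXs, P3TMZ and Nu-NB). The authors separated human and mouse cells by mapping reads to both genomes (human g38 and mouse mm10) and deposited raw UMI counts per gene and cell barcode without normalization. Submitters' processing notes name STAR and bcl2fastq 2.0. The annotation release is not given in the sources used here. Files held 1294068 to 8410580 UMIs, so low genes have wide intervals.

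A cell had to show 200 genes or more and no more than 30% of UMIs from mitochondria, as in the study, and per sample the 5% ranked first by doublet score (scrublet) were dropped. All samples were clustered jointly in Python 3.11.15 by scanpy 1.11.5 with leidenalg 0.10.2, using 2000 variable genes and 30 components, with 20 neighbors, a resolution of 1 and seed 1. No correction for batches was made, and 23 clusters resulted. Mixed or unnamed clusters were clustered once more. Class names were given where 3 or more markers, and 50% or more of the list, were found in 10% of the cells at 2-fold the level of other cells, with 2 of them in 30% of the cells. This naming rule was set with the clusters in view. It was changed after levels of the members by class had been seen once, so that a cluster led by cell cycle genes and formerly named myeloid-like became cycling-like and the second clustering ran without samples as batches. The members and the gene lists were chosen with earlier results of these data known. Genes named are the members, a set list of pathway genes, and the 5 genes most like each member. Other genes of the pathway lists enter counts only, and 1 item is not reported here. Abca1, Cst3, Numb, Sort1, Tnfrsf21, Gabbr1, Adam9, Adam17 and Aph1c, in counts under 5, and the leading genes of clusters were named after their values were seen.

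Summed counts were tested by edgeR 4.0.16 (quasi-likelihood, TMM) over all genes, with DESeq2 1.42.0 as an alternative, on R 4.3.3. The brain was 1 sample, so the spread between PDOXs stands for that between brains, and p-values measure the spread between these samples. Scripts were tested on simulated data. Pairs of classes were tested by exact permutation (scipy 1.17.1). Gene positions are those of GENCODE on GRCm38 and promoters those of RefSeq (3 of 3 members matched).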

Additional observations from a re-analysis of the deposited data

Results flagged for a closer look

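A sample was looked for that lay far from the other PDOXs in each member and class with 4 to 10 PDOXs, 18 groups in all, of which chance flags about 1 in 20. App in T101 stood far above the other PDOXs in astrocyte-like cells (901 CPM) and in mural-like cells (2198 CPM). P8 stood far above the others for Aplp2 in OPC-like (960 CPM), endothelial-like (1758 CPM) and mural-like cells (1111 CPM), and for Aplp1 in endothelial-like cells, at only 35.3 CPM.

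App went in opposite directions in P3TMZ and P3, with a ratio of 1.42 in endothelial-like and 0.589 in myeloid-like cells. Aplp2 lay above Nu-NB in every PDOX in cycling-like cells (mean 686 CPM, 2 UMIs in Nu-NB), as did 22.8% of genes, and below it in every PDOX in mural-like cells (mean 523 CPM, 16 UMIs in Nu-NB), as did 37.6% of genes. In T192, T233 and P3 the mural-like cells held more myeloid than mural markers. The cycling-like cells of Nu-NB held 26247.5 CPM of erythrocyte markers, against 0 to 15975 CPM in PDOXs. Neither Aplp2 difference from Nu-NB passed the edgeR threshold. The opposite directions of App and of Aplp2 between classes were not tested.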

How the results depend on the processing

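Between classes, the counts of pairs past the threshold (7 for Aplp1 and 6 for Aplp2) fell to 0 for both genes without removal of cells by doublet score, with at least 500 detected genes, with at most 10% mitochondrial UMIs, at Leiden resolution 2, with cells thinned to 500 UMIs, with UMIs of all genes as the denominator, with at least 30 cells per class, with T192 and T233 averaged to 1 sample, with T192, T233 and P3 left out of mural-like cells, and with T192, T16 and P13 left out of OPC-like cells, whose 8 pairs could then not be tested, the last 3 chosen after seeing the data. With cells assigned one by one, 3 and 4 pairs passed, and leaving out 1 PDOX gave 0 to 7 for Aplp1 and 0 to 6 for Aplp2. At the main setting all 13 called pairs shared 1 adjusted p, so that losing few of them ends the rest.

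The pairs that turned direction had not passed. Aplp1 in endothelial-like minus mural-like cells (0.02) was -0.043 with at most 10% mitochondrial UMIs, -0.015 at resolution 2, -0.18 with at least 30 cells, -0.081 with T192 and T233 averaged and -0.059 with T192, T233 and P3 left out, and -0.15 to 0.18 with 1 PDOX left out. Aplp1 in endothelial-like minus myeloid-like cells (-0.24) was 0.058 with cells assigned one by one, 0.011 with thinned cells and -0.50 to 0.0078 with 1 PDOX left out. Aplp1 in mural-like minus myeloid-like cells was 0.24 with at least 30 cells, Aplp2 in mural-like minus OPC-like cells was 0.41 with thinned cells, and Aplp2 in astrocyte-like minus OPC-like cells was -0.0029 without doublet removal.

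Between PDOX and Nu-NB, library totals without TMM turned App to -0.066 in cycling-like and -0.21 in mural-like cells and Aplp2 to -0.37 in endothelial-like cells, which was -0.017 without doublet removal. Aplp1 in astrocyte-like cells was -0.053 with at least 500 genes and -0.19 with cells assigned one by one, and Aplp2 in fibroblast-like cells was 0.050 without a filter on low counts. App in myeloid-like cells had a log2FC of 1.16 to 1.48 over 16 alternatives, with adjusted p from 0.016 (DESeq2) to 0.176 over edgeR and DESeq2 fits. The genes called in myeloid-like cells rose from 1 to 224 by DESeq2, 130 without P8 and 5 without TMM or without a filter, and fell to 0 without T101, T192 or T233 and with cells assigned one by one. In astrocyte-like cells 0 became 34 without a filter, 14 without P8, 13 with at most 10% mitochondrial UMIs and 1 by DESeq2, in endothelial-like cells 2 by DESeq2, and in cycling-like cells 0 to 6.

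Between P3TMZ and P3, the log2 ratio of App in myeloid-like cells was -1.10 with thinned cells. For Aplp2 it was 1.36 in mural-like and 0.45 in myeloid-like cells with thinned cells, and in cycling-like cells -0.078 with at least 500 genes, -0.30 with at most 10% mitochondrial UMIs and -0.69 at resolution 2. The mean App level of each class in PDOXs moved by less than 1 SD in every alternative. The causes of these changes were not tested. The test between classes was paired within PDOXs. No paired analysis of PDOX against Nu-NB or of P3TMZ against P3 was possible because Nu-NB and P3TMZ are 1 sample each.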
